A study of Homo sapiens with 6 samples.

Results

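The genes described here are 10 inflammatory chemokines and cytokines, CXCL1, CXCL2, CXCL3, CXCL8, CCL2, CCL20, IL6, IL1A, IL1B and CSF2, measured by RNA-seq in OVCAR8, a human ovarian carcinoma cell line. They were picked by name for their function, with earlier results of these data known. Matching was by gene symbol in the merged count table, which holds counts for 24635 gene IDs, while the tables per library hold 58037. In the RLN2 group, 3 libraries came from OVCAR8 cells given 50 ng/mL recombinant human RLN2, the peptide hormone relaxin-2, for 8 h. In the untreated group, 3 libraries came from OVCAR8 cells given none. Cells of both groups had first been kept 16 h without serum, and both groups are the same unmodified line. RLN2 libraries carry the numbers 1, 2 and 3 and untreated libraries the numbers 2, 3 and 4. The labels give triplicates without saying that they came from separate experiments, so the p-values measure the spread between these libraries, which may be technical.

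Chemokines and inflammatory cytokines are small secreted proteins through which injured, infected or malignant tissue calls in and instructs leukocytes. CXCL1, CXCL2, CXCL3 and CXCL8 draw neutrophils through the receptors CXCR1 and CXCR2, CCL2 draws monocytes through CCR2, and CCL20 draws lymphocytes and dendritic cells through CCR6. IL6 signals through IL6R and IL6ST, IL1A and IL1B through IL1R1 and IL1RAP, and CSF2 acts on myeloid cells. Many of these genes are switched on quickly through NF-kB and AP-1 sites beside their start sites, and their short-lived mRNAs are cleared by proteins that bind AU-rich elements. Relaxin-2 acts on RXFP1, a G protein-coupled receptor that can raise cyclic AMP, and cyclic AMP acts on genes through CRE motifs.

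Sequence before the start site is shown for 6 of the genes. Exact matches to the motif letters given below are described. Many of these genes are known for NF-kB or AP-1 sites, as said above, so such matches are no independent result. Each line gives 120 bases, from position -110 to position 10 about the RefSeq start site (GRCh38.p14), 5′ to 3′ on the gene's strand, and capitals mark the letters of an NF-kB motif, GGANTTTCC, or of a TATA box.
CXCL1, chr4:73869283-73869402, plus strand: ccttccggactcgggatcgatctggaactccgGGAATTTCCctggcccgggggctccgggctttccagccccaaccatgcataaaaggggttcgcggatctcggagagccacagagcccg
CXCL2, chr4:74099186-74099305, minus strand: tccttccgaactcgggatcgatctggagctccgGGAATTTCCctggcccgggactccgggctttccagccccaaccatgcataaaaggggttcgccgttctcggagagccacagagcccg
CXCL3, chr4:74038680-74038799, minus strand: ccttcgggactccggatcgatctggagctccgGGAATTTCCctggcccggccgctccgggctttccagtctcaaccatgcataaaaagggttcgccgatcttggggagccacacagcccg
CXCL8, chr4:73740459-73740578, plus strand: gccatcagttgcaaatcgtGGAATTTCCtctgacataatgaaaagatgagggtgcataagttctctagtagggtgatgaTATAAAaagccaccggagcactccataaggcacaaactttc
IL6, chr7:22727090-22727209, plus strand: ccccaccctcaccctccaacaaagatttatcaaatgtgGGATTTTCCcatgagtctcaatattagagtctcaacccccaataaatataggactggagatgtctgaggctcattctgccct
CCL20, chr2:227813732-227813851, plus strand: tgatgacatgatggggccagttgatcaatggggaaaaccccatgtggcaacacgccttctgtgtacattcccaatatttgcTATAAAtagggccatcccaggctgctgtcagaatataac

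Of the 10 genes, 9 had a RefSeq promoter window of 250 bases before to 50 after the start, and IL1A had more than 1 window. Counted from the start site, GGAATTTCC began at -78 in CXCL1 and CXCL3, at -77 in CXCL2 and at -91 in CXCL8, and IL6 held GGATTTTCC at -72. The motif GGANTTTCC, searched on both strands, was thus in 5 of 9 genes, and it was in 1.65% of all 34943 windows. An AP-1 motif, TGANTCA, was found in CXCL8 and IL1A and in 7.72% of all windows. The TATA box was sought as TATAAA, with matches at -31 in CXCL8, -29 in CCL20 and -239 in IL1A and in 11.6% of windows. The CRE motif, sought only as TGACGTCA, was in 1.84% of windows and in none of those of the 9 genes. The windows of IL6 and CXCL2 held GGACGTCA, which differs from it in the first letter and whose share of all windows was not counted. The windows of CXCL1 and CXCL3 were identical at 82.5% of aligned positions, those of CXCL2 and CXCL3 at 72.8% and those of CXCL1 and CXCL2 at 71.3%, while CXCL8 shared 36.5 to 40.5% with these genes. A match in letters is a description and not a measured binding site. The shares of all windows are given for scale only, since genes of inflammation were picked and CXCL1, CXCL2 and CXCL3 are not separate cases. Sites spelled otherwise were not sought, so a gene without a match, such as CCL20 or CSF2 for NF-kB, may still hold such a site.

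The libraries held between 11939148 and 22426768 reads on genes. RLN2 replicate 2 had the fewest, and 27.0% of its reads mapped to several places, against 5.31 to 6.19% in the other libraries. Measured over all genes, RLN2 replicate 1 was closer to untreated replicate 4 (chi-square per degree of freedom 2.47) than to any library of its own group (5.64 at the closest), so the groups do not separate as wholes. No 2 libraries agreed within sampling noise. Of the 11 ovarian carcinoma markers all had reads, and their summed level was 4110 to 4700 CPM (counts scaled to a common number of gene reads) in RLN2 libraries and 3190 to 4260 CPM in untreated libraries. Most of that sum came from VIM (mean 1770 CPM in RLN2 libraries and 1700 CPM in untreated libraries), KRT18 (1310 and 1160 CPM) and KRT8 (974 and 705 CPM). In the same order of groups WT1 averaged 3.35 and 2.98 CPM and CDH1 0.987 and 0.91 CPM. MUC16 and KRT19 had 4 reads each over all libraries. PAX8, a transcription factor of Müllerian epithelium, averaged 65.7 ± 6.88 CPM in RLN2 libraries and 53.2 ± 12.4 CPM in untreated libraries (SD, n = 3 each). The 12 leukocyte markers summed to 1.17 to 1.39 CPM in RLN2 libraries and 1.04 to 1.56 CPM in untreated libraries, with 2 reads of PTPRC, the pan-leukocyte gene, in all and FCGR3A, CD3E, MS4A1 and NKG7 at 0. The 5 fibroblast markers summed to 1.05 to 2.0 CPM in RLN2 libraries and 1.36 to 1.85 CPM in untreated libraries, with DCN and FAP at 0, and the 5 endothelial markers to 2.18 to 3.14 CPM in RLN2 libraries and 1.8 to 2.42 CPM in untreated libraries.

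Across the 10 genes, CXCL2 and IL6 made up most of the signal, 6 others were low, and CCL2 and CSF2 were at or near 0. None of the 8 genes with enough reads for a test passed an adjusted p of 0.05 in edgeR's quasi-likelihood test. In the same test 0% of all 16740 genes tested passed, the smallest adjusted p being 0.408. CXCL1, a neutrophil attractant, was the only one of the 8 whose RLN2 and untreated libraries did not overlap, with a fold of 0.624 and an unadjusted p of 0.0138. At an unadjusted p under 0.05, 1 of the 8 genes was counted, against 10.8% of all genes tested, and 1 of the 8 lay lower without overlap, against 10.5% of all genes.

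The 4 neutrophil-attracting CXC chemokines are described first. CXCL1 (chromosome 4, 73869393 to 73871242, plus strand; GRCh38, GENCODE 29) had 24, 13 and 31 reads in RLN2 replicates 1, 2 and 3, against 41, 58 and 33 reads in untreated replicates 2, 3 and 4. Scaled for library size, these were 1.34, 1.13 and 1.41 CPM in RLN2 libraries, against 1.85, 2.55 and 1.9 CPM in untreated libraries. Every RLN2 library lay below every untreated library, and untreated replicate 3 stood highest. The means were 1.29 ± 0.143 CPM in RLN2 libraries and 2.1 ± 0.388 CPM in untreated libraries (SD, n = 3 each). The log2 fold change of CXCL1, RLN2 over untreated, was -0.68 ± 0.22 (SE), with a 95% interval of -1.19 to -0.18 and an adjusted p of 0.408 in edgeR. By unadjusted p it stood at rank 257 of the 16740 genes. Leaving out untreated replicate 3, the highest library, gave CXCL1 -0.51 with an unadjusted p of 0.053 in edgeR, and DESeq2 gave an unadjusted p of 0.0793. Fewer cells making CXCL1 and less CXCL1 RNA per cell cannot be told apart in these bulk libraries, and this holds for every gene below.

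CXCL2 (chromosome 4, 74097035 to 74099293, minus strand), the close relative of CXCL1, had 222, 99 and 281 reads in RLN2 libraries, against 301, 260 and 207 reads in untreated libraries. That was 12.4, 8.62 and 12.8 CPM in RLN2 libraries, against 13.5, 11.4 and 11.9 CPM in untreated libraries. RLN2 replicate 2 was the lowest library and the other RLN2 libraries lay among the untreated ones. The means were 11.3 ± 2.28 CPM in RLN2 libraries and 12.3 ± 1.12 CPM in untreated libraries, and the log2 fold change of CXCL2 was -0.12 ± 0.17 (95% interval -0.52 to 0.28, adjusted p = 0.705 in edgeR). Without RLN2 replicate 2 it was 0.03.

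CXCL3 (chromosome 4, 74036589 to 74038807, minus strand), the third of these near-copies, had 1.78, 1.48 and 1.18 CPM in RLN2 libraries, against 1.53, 1.49 and 1.27 CPM in untreated libraries. These values rested on 17 to 32 reads in RLN2 libraries and 22 to 34 reads in untreated libraries. RLN2 libraries held both the highest and the lowest value, and the log2 fold change of CXCL3 was 0.03 ± 0.23 (95% interval -0.49 to 0.56, adjusted p = 0.976 in edgeR). CXCL3 was the only one of the 8 genes with an estimate above 0, and that sign turned in 4 of 20 alternatives.

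CXCL8 (chromosome 4, 73740506 to 73743716, plus strand), also called interleukin-8, had 38, 8 and 51 reads in RLN2 libraries, against 48, 56 and 36 reads in untreated libraries. Its levels were 2.11, 0.697 and 2.32 CPM in RLN2 libraries, against 2.16, 2.46 and 2.08 CPM in untreated libraries. The low RLN2 value is that of RLN2 replicate 2 alone, and the other RLN2 libraries lay within the untreated range. The log2 fold change of CXCL8 was -0.31 ± 0.34 (95% interval -1.09 to 0.48, adjusted p = 0.617 in edgeR), and it was -0.01 without RLN2 replicate 2.

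Since CXCL1 has near-copies, its share of the reads of CXCL1, CXCL2 and CXCL3 was also taken, a measure chosen after the values were seen. CXCL1 held 8.63%, 10.1% and 9.17% of these reads in RLN2 libraries, against 10.9%, 16.5% and 12.6% in untreated libraries. Wilson 95% intervals reached from 5.87 to 16.5% over the RLN2 libraries and from 8.14 to 20.7% over the untreated libraries, and they cover counting error only. The groups did not overlap, and the means differed by -4.03 percentage points, 9.29 ± 0.73% in RLN2 libraries and 13.3 ± 2.86% in untreated libraries (SD, n = 3 each). The exact two-sided permutation test gave p = 0.1, the smallest that the 20 assignments of 3 and 3 libraries allow. Without untreated replicate 3 the difference was -2.46 points. Of the 50-base words in their transcripts, 4.81% in CXCL1, 12.5% in CXCL2 and 6.01% in CXCL3 also occur in another of these genes. Reads from those stretches could be lost, since reads that map to several places are counted apart from gene reads.

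**Figure D1:**
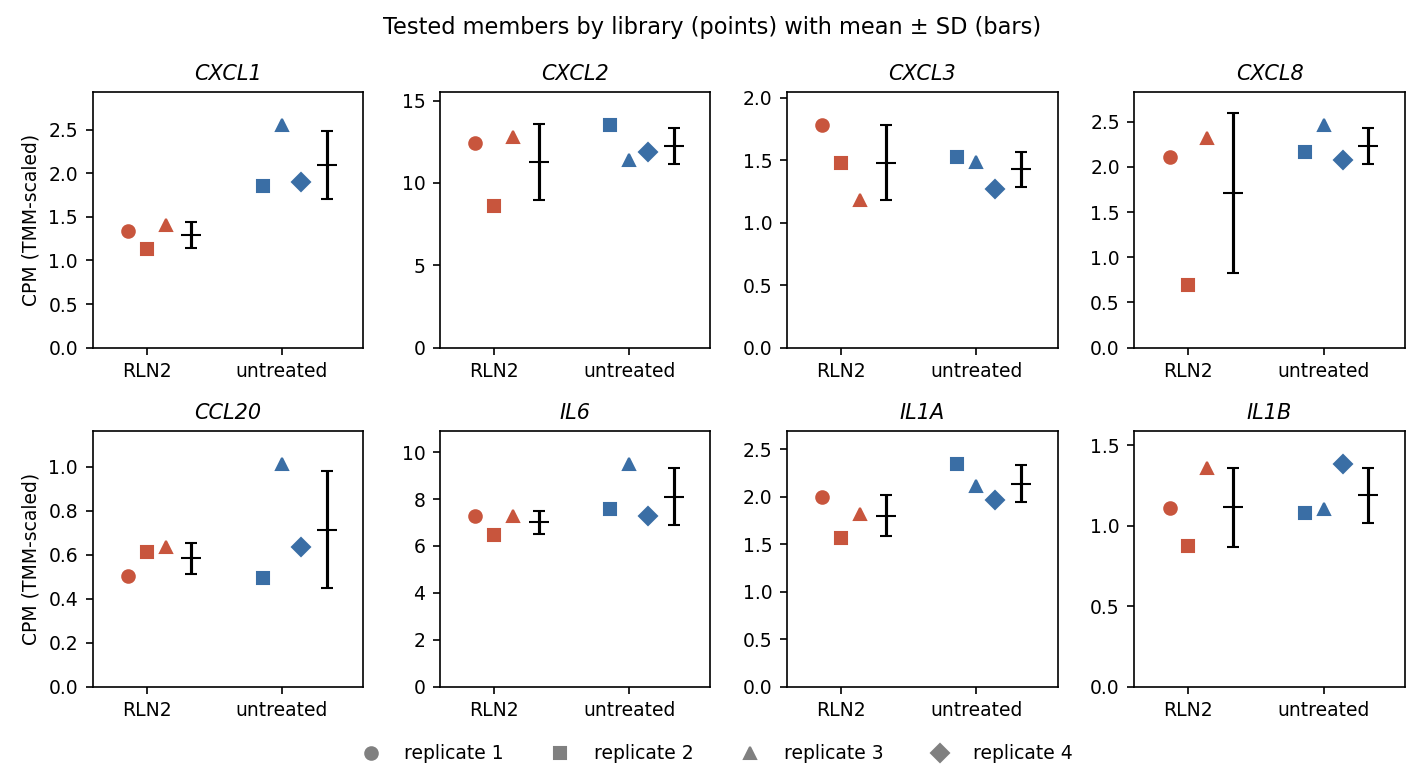
Level of each of the 8 genes tested in CPM (vertical axis, from 0, with its own scale in each panel) in the 3 RLN2 libraries and the 3 untreated libraries, each point 1 library with its replicate number by shape, and black bars for mean ± SD. Only in the CXCL1 panel do all RLN2 points (1.13 to 1.41 CPM) lie below all untreated points (1.85 to 2.55 CPM), and in the CXCL8 panel RLN2 replicate 2 (0.697 CPM) stands apart.

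The CC chemokines were scarce. CCL20 (chromosome 2, 227805739 to 227817564, plus strand) had 9, 7 and 14 reads in RLN2 libraries, against 11, 23 and 11 reads in untreated libraries. Its levels were 0.501, 0.61 and 0.636 CPM in RLN2 libraries, against 0.495, 1.01 and 0.634 CPM in untreated libraries, so that the groups overlapped and untreated replicate 3 stood above the rest. The log2 fold change of CCL20 was -0.3 ± 0.36 (95% interval -1.13 to 0.52, adjusted p = 0.637 in edgeR), and it was 0.06 without untreated replicate 3. CCL2 (chromosome 17, 34255218 to 34257203, plus strand), the monocyte attractant, had 0 reads in every RLN2 library and 0, 0 and 2 reads in untreated replicates 2, 3 and 4. Over all 6 libraries that is 0.0176 CPM, with an exact 95% interval of 0.00213 to 0.0636 CPM for counting error, and CCL2 was too low to be tested.

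Among the cytokines, IL6 (chromosome 7, 22725884 to 22732002, plus strand), which acts on growth and acute-phase genes through JAK and STAT3, had 131, 74 and 160 reads in RLN2 libraries, against 168, 216 and 126 reads in untreated libraries. Its levels were 7.29, 6.45 and 7.27 CPM in RLN2 libraries, against 7.56, 9.48 and 7.26 CPM in untreated libraries. The groups touched, with untreated replicate 4 just under RLN2 replicates 1 and 3, and untreated replicate 3 was the highest. The means were 7.0 ± 0.482 CPM in RLN2 libraries and 8.1 ± 1.2 CPM in untreated libraries, and the log2 fold change of IL6 was -0.21 ± 0.15 (95% interval -0.56 to 0.15, adjusted p = 0.474 in edgeR). Without untreated replicate 3 it was -0.08.

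IL1A (chromosome 2, 112773915 to 112784590, minus strand), an alarmin held inside cells until damage or cleavage, had 2.0, 1.57 and 1.82 CPM in RLN2 libraries, against 2.34, 2.11 and 1.96 CPM in untreated libraries. RLN2 replicate 1 lay just above untreated replicate 4, which is the only overlap, and 18 to 40 reads stood behind the RLN2 values and 34 to 52 behind the untreated values. Its log2 fold change was -0.24 ± 0.18 (95% interval -0.67 to 0.19, adjusted p = 0.491 in edgeR), and it was -0.07 with offsets for GC content and length. IL1B (chromosome 2, 112829751 to 112836903, minus strand), which caspase-1 cuts to its active form, had 1.11, 0.871 and 1.36 CPM in RLN2 libraries, against 1.08, 1.1 and 1.38 CPM in untreated libraries, from 10 to 30 and 24 to 25 reads in those groups. The groups overlapped, and the log2 fold change of IL1B was -0.04 ± 0.25 (95% interval -0.61 to 0.53, adjusted p = 0.992 in edgeR), a sign that turned in 6 of 20 alternatives. CSF2 (chromosome 5, 132073790 to 132076170, plus strand), which encodes GM-CSF, had 0 reads in all 6 libraries, which allows a level of up to 0.0264 CPM (3 counts over all libraries, counting error only).

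Of the 8 genes tested, 7 had an estimate below 0, against 52.2% of all genes tested, and 1 had an estimate above 0, against 47.8% of all genes. With 8 genes from the same libraries these counts are descriptions. The median log2 fold change of the 8 genes was -0.22 and that of all genes -0.01, while the median SE was 0.22 for the 8 genes and 0.16 for all genes. The intervals of all 8 genes ended below a 2-fold higher level in RLN2 libraries, the widest reaching 1.47-fold. For 5 of the 8 the interval also ended above a 2-fold lower level. CXCL1, CXCL8 and CCL20 could therefore have been more than 2-fold lower within their intervals, and a p that misses the threshold does not show that a level was equal.

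**Figure D2:**
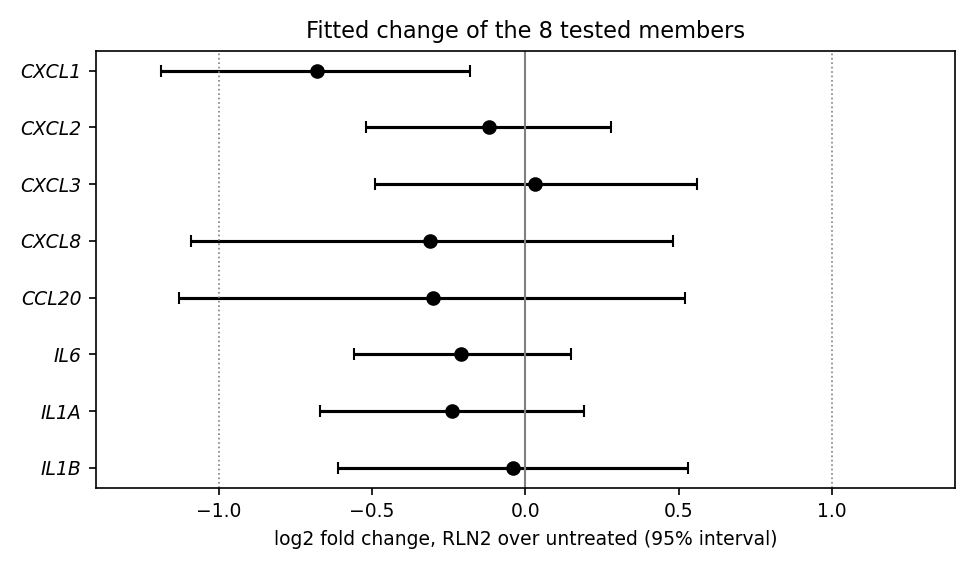
Log2 fold change (horizontal axis, RLN2 over untreated) of the 8 genes tested, each point with its 95% interval, with a solid line at 0 and dotted lines at a 2-fold difference either way. The interval of CXCL1 (-1.19 to -0.18) lies below 0 and the other 7 intervals hold 0.

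The lower estimates moved with particular libraries. Summed over the 10 genes, the level was 28.5, 21.4 and 28.8 CPM in RLN2 libraries, against 30.6, 31.6 and 28.5 CPM in untreated libraries. RLN2 replicate 2, which also had the fewest gene reads and the most multimapped reads, was the lowest library for 6 of the 8 genes, and untreated replicate 3 the highest for 4 of 8. Without RLN2 replicate 2 the median log2 fold change of the 8 genes was -0.08, and with 1 surrogate variable in the fit it was -0.04 and 4 of the 8 estimates lay below 0. The part of library quality in these values was not tested.

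**Figure D3:**
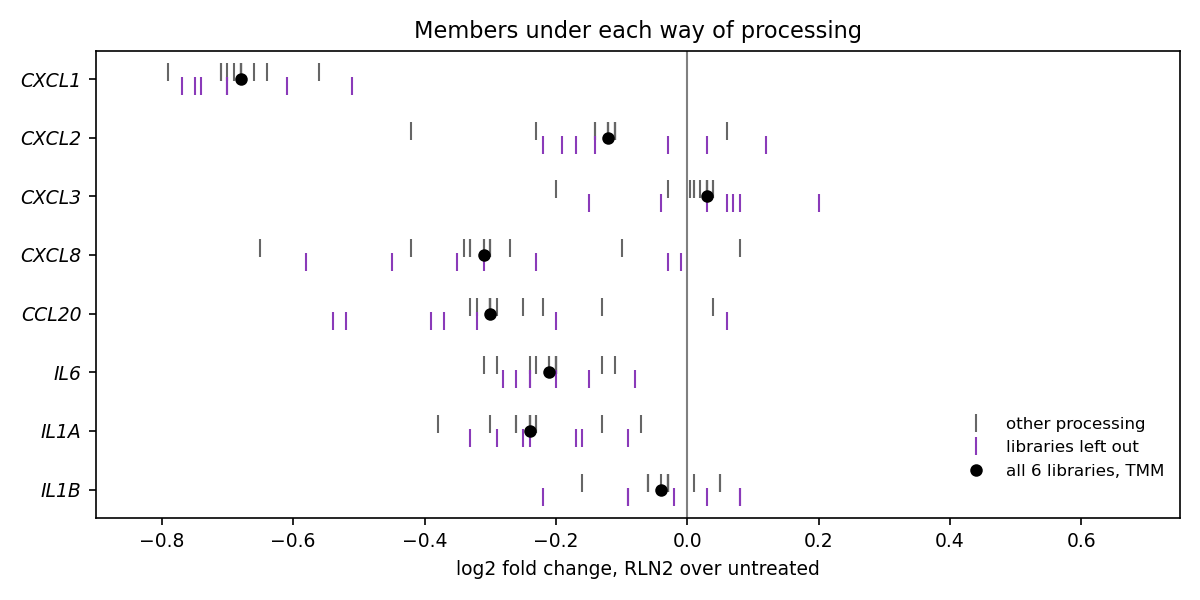
Log2 fold change (horizontal axis, RLN2 over untreated) of the 8 genes tested, down the page, with ticks for other ways of processing (grey) and for left-out libraries (purple) and a black point for the value reported in the text. CXCL1 (-0.79 to -0.51), IL6 (-0.31 to -0.08) and IL1A (-0.38 to -0.07) stay below 0 in all 20 alternatives, and the other 5 genes cross 0.

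Levels of different genes were compared as CPM per kilobase of exon, averaged over the 6 libraries. On that scale CXCL2 led with 7.85 and IL6 followed with 3.65, and CXCL2 was higher than IL6, IL6 higher than CXCL1 and CXCL1 higher than IL1A in all 6 libraries. CXCL1 stood at 1.31, IL1A at 0.926, CXCL8 at 0.867, CXCL3 at 0.656, CCL20 at 0.406 and IL1B at 0.372. Neighbours that changed places between libraries were IL1A and CXCL8 (IL1A higher in 4 of 6), CXCL8 and CXCL3 (CXCL8 higher in 5 of 6) and CCL20 and IL1B (CCL20 higher in 2 of 6). CCL2 came after them at 0.00968. Dividing by mean transcript length in place of merged exon length kept CXCL2 at 14.9, IL6 at 8.79 and CXCL1 at 2.03 in front but changed the order below them. CXCL8 (1.97), CXCL3 (1.41), IL1B (1.3) and CCL20 (0.955) then all stood above IL1A (0.926), so the lower part of the order depends on the length used. In reads, CXCL2 held 41.7% and IL6 26.6% of the 3285 reads of the 10 genes.

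The CXC genes lie together on chromosome 4, where 359 kb from CXCL8 to CXCL2 hold 9 protein-coding genes. Of these, CXCL5, a neutrophil attractant outside the 10 genes, had 998 reads and 3.43 on the same per-length scale, second to CXCL2. CXCL5 had 9.63, 7.84 and 9.14 CPM in RLN2 libraries, against 9.77, 7.77 and 8.07 CPM in untreated libraries, so the groups overlapped, and its log2 fold change was 0.06 ± 0.15 (adjusted p = 0.836 in edgeR). CXCL6 had 7 reads, PF4, a platelet chemokine, had 3, and PF4V1 and PPBP had 0. CXCL2 (1370 reads) and CXCL5 held most of the cluster's reads. CXCL3, which lies between them, had 165 reads, fewer than CXCL8 (237) and CXCL1 (200).

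**Figure D4:**
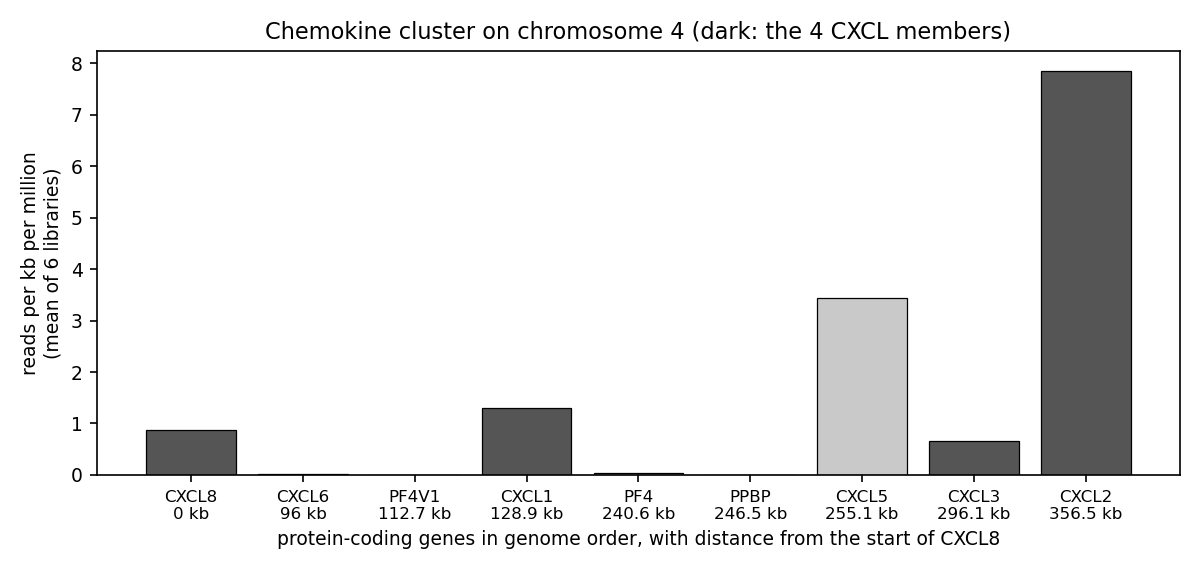
Mean level over the 6 libraries (vertical axis, CPM per kilobase of exon) of the 9 protein-coding genes of the chromosome 4 cluster in genome order (horizontal axis, with the distance of each from the start of CXCL8 in kb, not to scale), dark for the 4 genes described here. CXCL2 (7.85), CXCL5 (3.43) and CXCL1 (1.31) stand above the others, and CXCL6, PF4, PF4V1 and PPBP lie at or near 0.

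The stranded kit lets reads on the opposite strand be counted apart, and they differed widely between the 10 genes. CXCL1, CXCL2, CXCL3 and CXCL8 had 1 to 3 reads on the opposite strand over all libraries. CCL20 had 228 reads on the opposite strand and 75 on its own, so that 75.2% of its reads were opposite, a share that 1.97% of tested genes reach and whose median over tested genes is 0.367%. Per library these were 42, 26 and 39 reads in RLN2 libraries, against 46, 45 and 30 reads in untreated libraries, or 2.1 ± 0.286 CPM in RLN2 libraries and 1.94 ± 0.173 CPM in untreated libraries (SD, n = 3 each). The opposite share was 48.2% for IL1B (124 reads) and 33.1% for IL1A (113 reads). IL6 had 6.02%, and there IL6-AS1 (chromosome 7, 22725395 to 22727620, 98 reads) and STEAP1B (2561 reads) overlap it on the minus strand. The unstranded column gave 709 reads for IL6, fewer than the 875 on its own strand, since reads over genes of both strands are ambiguous there. For CCL20 (303 reads), IL1A (341) and IL1B (257) that column held as many reads as both strands together, so none were lost as ambiguous. Where the opposite reads come from was not tested.

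**Figure D5:**
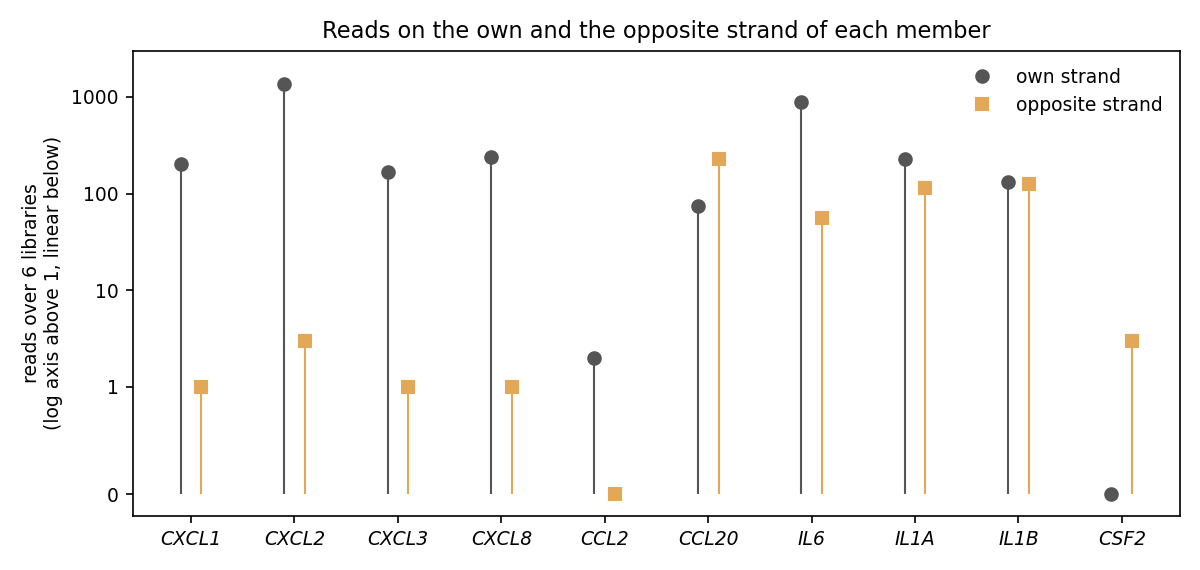
Reads over the 6 libraries on the own strand (circles) and on the opposite strand (squares) of each gene, with a vertical axis that is logarithmic above 1 and linear below. CCL20 is the only one of the genes with over 10 reads whose opposite-strand reads (228) exceed its own (75), and IL1B (124 against 133) comes next.

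Genes around the 10 were taken from lists of the same pathways, and no gene of any list passed an adjusted p of 0.05 in edgeR. The groups did not overlap, higher or lower, for 21.4% of all genes tested. Tested genes named from the lists had the smallest unadjusted p, which favours groups without overlap. Besides those described so below, CSF1, NFKB2, BCL3, FOSB, KHSRP and ZFP36L1 lay higher without overlap in RLN2 libraries, and TIA1 lower. Of 41 other chemokines, 39 matched a gene, 13 had reads and 3 were tested, CXCL5, CXCL16 and CCL28, with log2 fold changes of 0.06, 0.09 and -0.00066. The T cell attractant CXCL10, the stromal CXCL12 and CCL5 were among the 26 listed at 0. Of the receptors for the 10 genes, CXCR1 had 3 reads, CXCR2 had 1, and CCR2, CCR6, ACKR1 and CSF2RA had 0. The 4 receptor genes tested held 1 estimate above 0 and 3 below, with a median log2 fold change of -0.08, or 0.00065 with 2 above and 2 below when offsets for GC content and length were used. IL6ST, the shared signal subunit for IL6, averaged 512 ± 18.9 CPM in RLN2 libraries and 555 ± 68.7 CPM in untreated libraries, with a log2 fold change of -0.12 ± 0.1 that became 0.04 with the offsets. IL1RAP, the partner of the IL-1 receptor, lay at 20.9 to 22.5 CPM in RLN2 libraries and 23.1 to 26.3 CPM in untreated libraries, without overlap. Its log2 fold change was -0.18 ± 0.1, or -0.04 with the offsets.

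Of 28 other cytokines 11 were tested, 7 with an estimate above 0 and 4 below, with a median log2 fold change of 0.28. That median was 0.12 without untreated replicate 2 and also with GC content and length offsets, and 0.1 without both libraries numbered 2. LIF, an IL6-family cytokine, had 8.4, 10.8 and 9.32 CPM in RLN2 libraries, against 5.58, 7.02 and 7.38 CPM in untreated libraries. The groups did not overlap, and its log2 fold change was 0.51 ± 0.16 (unadjusted p = 0.0147, adjusted p = 0.408 in edgeR), or 0.12 with GC content and length offsets. CSF1, the macrophage growth factor, had 3.23, 2.96 and 3.05 CPM in RLN2 libraries, against 1.35, 2.24 and 2.54 CPM in untreated libraries, and a log2 fold change of 0.61 ± 0.24 (unadjusted p = 0.0358, adjusted p = 0.408 in edgeR). Leaving out untreated replicate 2 gave 0.38, and the offsets gave 0.35. IL12A had a log2 fold change of -0.45 ± 0.21, or -0.29 without RLN2 replicate 1, and no overlap, at 1.28 to 1.95 CPM in RLN2 libraries and 2.28 to 2.36 CPM in untreated libraries.

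All 17 NF-kB and C/EBP genes were tested. Their median log2 fold change was 0.22 with 13 above 0 and 4 below, but -0.06 with 6 above and 11 below with GC content and length offsets. NFKB2, the precursor of p52, averaged 36.9 ± 3.11 CPM in RLN2 libraries and 26.2 ± 7.02 CPM in untreated libraries, with a log2 fold change of 0.49 ± 0.19, or -0.02 with the offsets. RELA, the p65 subunit, had 0.42 ± 0.19, or -0.07 with the offsets. BCL3, a nuclear partner of p50 and p52, had 1.05 ± 0.36, or 0.41 with the offsets, from 63 reads in all.

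The 8 AP-1 genes had estimates above 0 in the reported fit and a median log2 fold change of 0.32. With upper-quartile scaling or none, in limma-voom and with 1 surrogate variable 1 of the 8 lay below 0. The same held without RLN2 replicate 2, without untreated replicate 3 and without both libraries numbered 2. With GC content and length offsets the median was 0.05, with 5 above and 3 below. JUN had 75.9, 89.9 and 89.8 CPM in RLN2 libraries, against 54.5, 68.3 and 68.9 CPM in untreated libraries. The groups did not overlap, and the log2 fold change of JUN was 0.41 ± 0.11 (unadjusted p = 0.00692, adjusted p = 0.408 in edgeR), or 0.12 with the offsets. FOSL1 had 0.45 ± 0.18, or 0.01 with the offsets, and FOSB had 0.5 ± 0.23, or 0.1 with the offsets.

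The 12 genes that act on AU-rich mRNAs had a median log2 fold change of 0.01, with 6 above 0 and 6 below. Among them KHSRP, a decay factor, had 0.38 ± 0.13 and ZFP36L1, which binds AU-rich elements, 0.17 ± 0.07, but -0.13 and -0.27 with GC content and length offsets. TIA1, a translational silencer, had -0.24 ± 0.09, or -0.07 with the offsets. Of the 7 tested genes that process or release IL-1, 5 lay above 0 and 2 below, with a median log2 fold change of 0.17. Without untreated replicate 2 the median was 0.03, with 4 above and 3 below, and without both libraries numbered 2 it was 0.04. CASP1, the protease that cuts IL1B, had 1.05 to 1.11 CPM in RLN2 libraries and 1.38 to 1.71 CPM in untreated libraries, without overlap, and a log2 fold change of -0.5 ± 0.21 (unadjusted p = 0.0392, adjusted p = 0.408 in edgeR). CAPN1, the calpain that cuts IL1A, had 0.68 ± 0.3 and GSDMD, whose pore releases IL1B, 0.71 ± 0.37, both with overlapping groups and both lower without untreated replicate 2, at 0.37 and 0.36, or with the offsets, at 0.25 and 0.12.

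Of 20 inflammatory effector genes 13 were tested, 8 above 0 and 5 below, with a median log2 fold change of 0.04, or -0.02 with 5 above and 8 below with GC content and length offsets. MMP1, a collagenase that inflammatory cytokines induce, had 20.5, 21.2 and 22.2 CPM in RLN2 libraries, against 28.8, 27.4 and 25.1 CPM in untreated libraries. Its groups did not overlap and its log2 fold change was -0.35 ± 0.1 (unadjusted p = 0.00869, adjusted p = 0.408 in edgeR), or -0.23 with the offsets. TRAF1, a signal adapter of TNF receptors, had a log2 fold change of 0.35 ± 0.18, or 0.11 with the offsets, and its groups overlapped.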

How the data were processed

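Per the labels' protocols, total RNA was isolated with TRIzol and sequenced from a strand-preserving kit. The authors deposited raw counts: for each library a gene table with an unstranded column and 1 for each strand, and a merged table. Per the submitters' processing notes, STAR and hg38 were used. Neither its version nor the annotation release is given in the sources used here. Reverse-strand counts were used, since they exceeded forward counts 17.8 to 19.8 times, and the merged table equals them for all 24635 IDs with counts. GENCODE 29 on GRCh38 gave names and lengths for 57433 of 58037 IDs.

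Genes passing filterByExpr (16740) were fitted with edgeR 4.0.16 in R 4.3.3, with TMM scaling, treatment as the only term, a two-sided quasi-likelihood test and Benjamini-Hochberg adjustment over all genes tested, with a threshold of 0.05. Standard errors came from the coefficient and its F statistic. CPM are TMM-scaled. The alternatives used limma 3.58.1, DESeq2 1.42.0 and sva 3.50.0, and tables were made with pandas 2.3.3. The fits were also tested on simulated data. Wilson intervals, exact intervals of a level and floors cover counting error only. Intervals of log2 fold changes come from the quasi-likelihood fit and also include the spread between libraries.

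The members and lists were chosen with earlier results of these data known. Named genes are all 10 members and, from each surrounding list, up to 3 tested genes with the smallest unadjusted p, of which 1 is not reported here. Other genes of the chromosome 4 cluster, genes overlapping IL6, and receptors, chemokines and markers at or near 0 were named after their values were seen. Promoter windows are from RefSeq (GRCh38.p14). Proteins of the CXC chemokines were not used here.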

Additional observations from a re-analysis of the deposited data

How the results depend on the processing

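The count of members past the test stayed at 0 in all 21 alternatives. The count of all genes past it, 0 in the reported fit and in DESeq2 and limma-voom (1677 and 2058 at an unadjusted p under 0.05, 1811 in edgeR), was 120 with no filter (115 higher and 5 lower), 1 with the replicate block, 3 without both libraries numbered 2, and 0 to 3 when 1 library was left out, the highest without untreated replicate 2. The causes were not tested. The median log2 fold change of the members, -0.22, was -0.04 with 1 surrogate variable, -0.06 without both libraries numbered 2 and -0.28 to -0.08 when 1 library was left out. CXCL1 kept its sign in 20 of 20 alternatives, with adjusted p of 0.232 to 0.902 and an unadjusted p under 0.05 in 17, the exceptions being 1 surrogate variable (0.0649), DESeq2 (0.0793) and the fit without untreated replicate 3 (0.053). The numbers 2 and 3 occur in both groups, but the labels do not say that they pair libraries, and the correlations of same-numbered deviations over 13029 genes were -0.545 and 0.276. With the replicate block the log2 fold change of CXCL1 was -0.79.

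These signs turned. With unstranded counts the value was 0.04 for CCL20, -0.05 for CXCL16 and 0.02 for CCL28. With GC content and length offsets it was -0.03 for CXCL3, 0.01 for IL1B, -0.17 for CXCL16, 0.11 for CCL28, 0.04 for IL6ST, -0.17 for IL6R, -0.02 for NFKB2, -0.07 for RELA, -0.13 for KHSRP and -0.27 for ZFP36L1. With 1 surrogate variable it was 0.06 for CXCL2, 0.08 for CXCL8 and 0.05 for IL1B. With the replicate block it was -0.20 for CXCL3, 0.05 for IL1B, -0.04 for CXCL5 and -0.11 for CXCL16. Without both libraries numbered 2 it was 0.12 for CXCL2, 0.03 for IL1B, 0.05 for CCL28, 0.01 for IL6ST and -0.07 for IL6R. CCL28, near 0 throughout, was 0.0012 with size factors of DESeq2, 0.00086 with no filter, 0.0013 with the stricter filter, 0.0014 in the merged table and 0.00068 in DESeq2. With 1 library left out, signs turned within -0.15 to 0.20 for CXCL3, -0.22 to 0.08 for IL1B, -0.22 to 0.03 for CXCL2, -0.52 to 0.06 for CCL20, -0.01 to 0.18 for CXCL5, -0.02 to 0.25 for CXCL16, -0.12 to 0.10 for CCL28 and -0.04 to 0.22 for IL6R.

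Between 7 and 58 reads per library stood behind CXCL1, CXCL3, CXCL8, CCL20, IL1A and IL1B, and CCL2 and CSF2 could not be tested. A 2-fold lower level lay within the intervals of CXCL1, CXCL8 and CCL20.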
